A study of Drosophila melanogaster with 3 samples.

Results

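The tetraspanin family of *Drosophila melanogaster* was examined in dissected wings of late pupae. Its members were the genes whose platform symbol has the form Tsp followed by a cytological position, together with *lbm* (late bloomer) and *TM4SF*, and each gene had to have a probe set that names no other gene. By this rule 34 tetraspanin genes were found among 11981 named genes, and each had 1 such probe set. RefSeq lists 36 genes under the same names. The remaining members, *Tsp42Eb* and *Tsp66A*, had only probe sets shared with other genes. The wings came from the wild-type strain Oregon R, kept at 25 C, at about 80 h after puparium formation, a stage judged by eye from wing pigment. RNA was taken from batches of 40 flies. The 3 biological replicates were hybridised to 1 Affymetrix array each and form a single group, so the data hold no contrast between conditions. Whole dissected wings were used, and fewer cells of a type cannot be told apart from less RNA per cell.

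Tetraspanins are small proteins that cross the membrane several times and carry a large extracellular loop held together by cysteines. They bind other membrane proteins laterally, among them integrins, membrane metalloproteases and each other, and gather them into patches of the plasma membrane or of endosomes. Many also travel on late endosomes, lysosomes and secreted vesicles. In flies a large part of the family lies in a tandem run of related genes at cytological position 42E. At this stage of development the wing is a bilayer of epidermal cells that secrete and pigment the adult cuticle.

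Signals were read as log2 values against a reference level, the 95th percentile of 93 genes of antenna, eggshell and male accessory gland on the same array. That level was 6.51, 6.72 and 6.56 on replicates 1, 2 and 3. A gene was called above the reference where its mean difference to this level exceeded 0 in a 1-sided limma test with a Benjamini-Hochberg adjusted p under 0.05 over all 11981 genes. Signals of different probe sets also depend on their probes, so the values describe each gene against the reference and give no order of transcript abundance. Pearson's r between pairs of arrays, across genes, was 0.929 to 0.934. All 10 wing epidermis markers were above the reference, *nub*, *vg* and *ap* among them, beside 46.3% of all named genes.

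Of the 34 tetraspanin genes 18 were above the reference (52.9%), against 46.3% of all named genes, a share near that background. The median difference to the reference was 0.71 (log2) over the tetraspanins and 0.22 over all genes. The family spanned nearly the whole range of the arrays, with mean differences from -4.93 for *Tsp42A* to 8.17 for *Tsp42Ee*. A set of 6 tetraspanins lay at least 6 log2 units over the reference. That is 17.6% of the family, beside 3.95% of all genes, with a limit chosen after the values were seen and therefore without a test.

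These 6 genes were *Tsp42Ee*, *Tsp74F*, *Tsp42Ea*, *Tsp42Ei*, *Tsp42El* and *TM4SF*. *Tsp42Ee* had log2 signals of 14.74, 14.72 and 14.86 on replicates 1, 2 and 3, a mean of 14.77 ± 0.07 (SD, n = 3) and a difference to the reference of 8.17 ± 0.14 (SE; limma, adjusted p = 8.2e-05). *Tsp74F*, whose gene lies outside the 42E run, had 14.39, 14.32 and 14.36, with an SD of 0.03. The arrays differed by far less than the distance of either gene from the reference. *Tsp42Ea* had 14.14, 14.24 and 14.11 and lay 7.56 ± 0.13 (SE) over the reference. *Tsp42Ei* had 13.93, 13.85 and 13.70, which was 7.23 ± 0.14 (SE) over it. In linear terms the mean differences of these genes correspond to 189-fold and 149.6-fold over the reference. *Tsp42El* had 13.31, 13.30 and 13.48, and *TM4SF* 12.99, 12.58 and 12.83. *TM4SF* had the largest spread of the 6 genes, with an SD of 0.21 and its lowest signal on replicate 2. The probe sets of *Tsp74F* and *Tsp42Ea* are of the _s_at type, which can hybridise to transcripts of more than 1 gene. In RefSeq *Tsp42Ea* also overlaps *Tsp42Eb* and *CG30159*, *Tsp42Ei* overlaps *CG33914*, and *TM4SF* overlaps *CG4882*. How far these genes contribute to the signals was not tested.

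**Figure D1:**
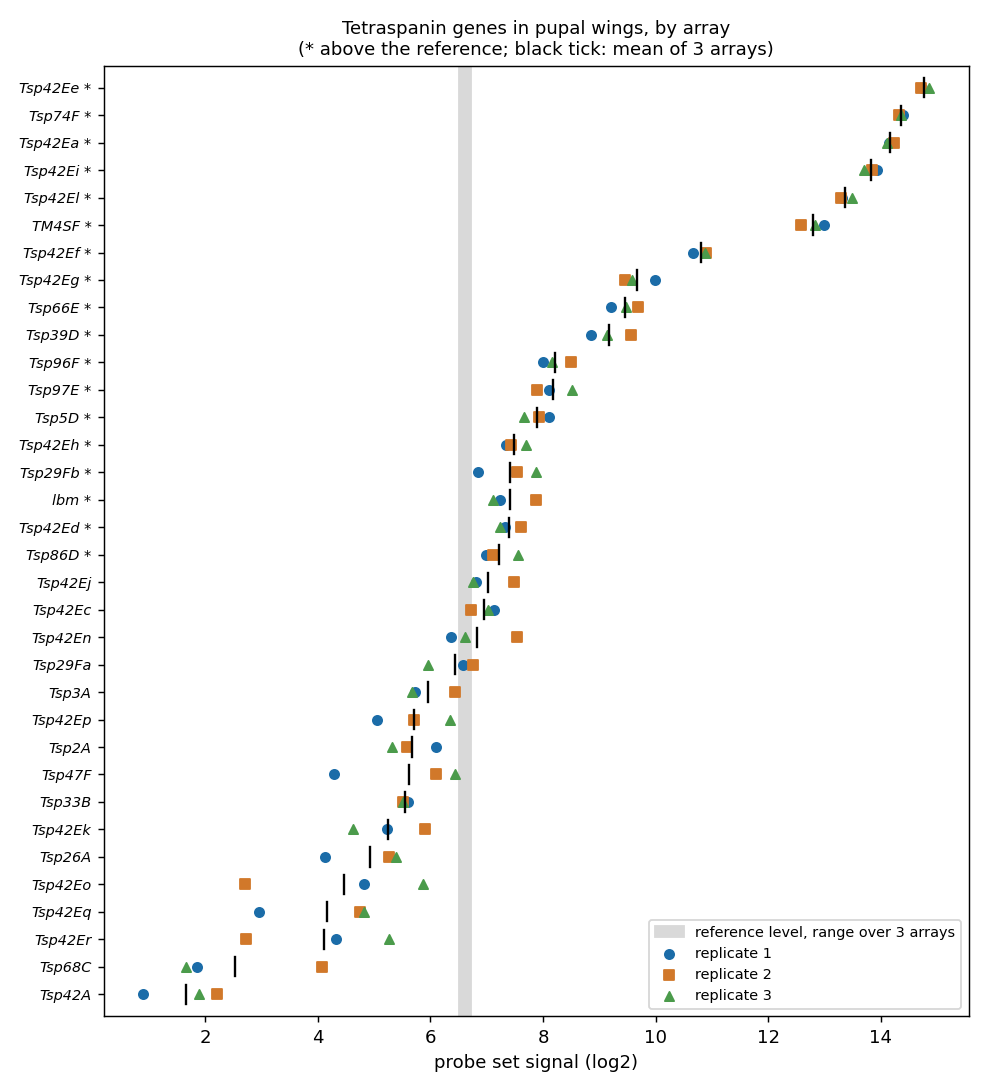
Log2 probe set signal of the 34 tetraspanin genes (rows) on the 3 arrays (markers), with the mean as a black tick and the range of the reference level as a grey band. Genes with an asterisk were above the reference. The upper 6 genes lie between 12.58 and 14.86 on every array, and the row order follows the mean signal, not transcript abundance.

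A second group of tetraspanins was above the reference by smaller amounts. *Tsp42Ef* had log2 signals of 10.66, 10.89 and 10.88 on replicates 1, 2 and 3 and lay 4.21 ± 0.13 (SE) over the reference. *Tsp42Eg* had 9.99, 9.46 and 9.58, *Tsp66E* 9.20, 9.69 and 9.47, and *Tsp39D* 8.86, 9.56 and 9.13. Their differences to the reference were 3.08, 2.85 and 2.59, each several times its SE. The lowest signal of *Tsp66E* and *Tsp39D* was on replicate 1, and that of *Tsp42Eg* on replicate 2. *Tsp66E* was read by an _s_at probe set, and its gene overlaps *mfr* in RefSeq. *Tsp96F* (8.0, 8.49 and 8.15), *Tsp97E* (8.10, 7.89 and 8.51) and *Tsp5D* (8.10, 7.92 and 7.66) were 1.62, 1.57 and 1.29 over the reference, with limma adjusted p of 0.00096, 0.0035 and 0.0032. With the median of all genes plus 1 as the level these 3 calls ended, at adjusted p of 0.132, 0.350 and 1.0. The *Tsp5D* gene overlaps *CG5928* in RefSeq. In all, 13 of the 18 genes above the reference lay at least 2-fold over it. Over the whole series 5005 of the 5553 called genes did, so this share was not higher in the family.

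The other 5 calls were close to the reference, and 3 of them rested on particular arrays. *Tsp42Eh* had log2 signals of 7.35, 7.43 and 7.70 and a difference of 0.90 ± 0.16 (SE), and *Tsp42Ed* had 7.32, 7.61 and 7.24 and a difference of 0.80 ± 0.13. *lbm*, which is known for its part in the formation of neuromuscular synapses, had 7.23, 7.88 and 7.11 (difference 0.81 ± 0.18; limma, adjusted p = 0.017). When replicate 1 was left out it was not called (adjusted p = 0.066), nor when replicate 2 was (adjusted p = 0.051), and over all alternatives its adjusted p ran from 0.0023 to 1.0. *Tsp29Fb* had 6.85, 7.53 and 7.88 (difference 0.82 ± 0.25; limma, adjusted p = 0.038). It was not called without replicate 2 (adjusted p = 0.132) or without replicate 3 (adjusted p = 0.122), within a range from 0.0042 to 1.0 over all alternatives. *Tsp42Eh* and *Tsp29Fb* were read by _s_at probe sets, and the *Tsp29Fb* gene overlaps *Argl* in RefSeq. *Tsp86D* had 6.99, 7.11 and 7.56 (difference 0.62 ± 0.19; limma, adjusted p = 0.040), and leaving out any 1 array ended its call, with adjusted p of 0.0996, 0.0733 and 0.158 without replicates 1, 2 and 3, within a range from 0.0026 to 1.0 over all alternatives. All 5 genes were over the reference on each of the 3 arrays, and none was called with the 99th percentile of the reference genes, or the eggshell and accessory gland genes alone, as the level. Beside *lbm*, 4 of 10 neuronal markers were above the reference (*Snap25*, *Appl*, *cac* and *futsch*), a share near the 46.3% of all genes. This count was 7 with the 90th percentile (48.7% of all genes) or with odorant receptors alone (47.7%) as the level. It was 8 with non-fly controls (56.5%), so the nearness to the background depends on the level. Without a call were the pan-neuronal marker *elav* at 7.63 ± 0.71 (SD, n = 3; difference 1.03) and *para* at 7.59 ± 0.75 (difference 0.99). *Syn*, *brp* and *fne* were at 7.0 ± 0.11, 6.68 ± 0.48 and 6.36 ± 0.63, also not called. The lowest was *nSyb*, the neuronal synaptobrevin, at 3.07 ± 0.61. Over the reference on all 3 arrays were 7 of the 10 neuronal markers, beside 48.9% of all genes. The part of neurons in the *lbm* signal was not tested.

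The remaining 16 tetraspanins were not called, and 1 of them had an unadjusted limma p under 0.05. That gene was *Tsp42Ej*, which encodes Sunglasses, a lysosomal tetraspanin known for the degradation of rhodopsin in photoreceptors. It had log2 signals of 6.81, 7.49 and 6.75 and was over the reference on all 3 arrays by 0.42 ± 0.18 (SE; limma, adjusted p = 0.096). It was called in 5 of 16 alternatives, such as the 90th percentile (adjusted p = 0.028) and odorant receptors alone (adjusted p = 0.042) as the level, within a range from 0.0053 to 1.0. *Tsp42Ec*, *Tsp42En* and *Tsp29Fa* were over the reference on some arrays and not on others, with differences of 0.35, 0.23 and -0.17. At these values the arrays do not separate a low signal from none. The other 12 of the 34 tetraspanins were under the reference on every array, as were 4926 of all 11981 genes. These 12 were *Tsp3A*, *Tsp42Ep*, *Tsp2A*, *Tsp47F*, *Tsp33B*, *Tsp42Ek*, *Tsp26A*, *Tsp42Eo*, *Tsp42Eq*, *Tsp42Er*, *Tsp68C* and *Tsp42A*, with mean log2 signals from 5.95 down to 1.66.

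Along the 42E run, genes above the reference were interleaved with genes that were not. RefSeq places 18 tetraspanin genes between *Tsp42Ea* and *Tsp42Er*, of which 17 were measured and 9 were above the reference. Of the 17 tetraspanins outside the run 9 were above the reference too, so both shares were 52.9%, near the 46.3% of all genes. *Tsp42Ee* had a mean log2 signal of 14.77, while the genes before it, *Tsp42Ec* and *Tsp42Ed*, were at 6.95 ± 0.21 and 7.39 ± 0.19 (SD, n = 3). *Tsp42Ei* was at 13.82 ± 0.12 and was followed by *Tsp42Ej* and by *Tsp42Ek* at 5.25 ± 0.65. *Tsp42El* came next at 13.36 ± 0.10. *Tsp42Ef* and *Tsp42Eg*, which adjoin each other, were at 10.81 ± 0.13 and 9.67 ± 0.28. The last 5 tetraspanins of the run, *Tsp42En*, *Tsp42Ep*, *Tsp42Eo*, *Tsp42Eq* and *Tsp42Er*, were not called. *Tsp42Eo* had log2 signals of 4.81, 2.71 and 5.86 and *Tsp42Er* 4.33, 2.73 and 5.26, both lowest on replicate 2. The run also holds 6 protein-coding genes that are not tetraspanins, and both that were measured were above the reference, *CG30159* at 10.60 ± 0.05 and *Pgant3*, an enzyme that starts mucin-type glycosylation, at 9.08 ± 0.12. *Pgant3* lies between *Tsp42Eo* and *Tsp42Eq*. Beyond the run, *CG17002* next to *Tsp42Ea* was above the reference and *CG12836* next to *Tsp42Er* was not. Whether the probe sets of these related genes hybridise to transcripts of their neighbours was not tested.

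**Figure D2:**
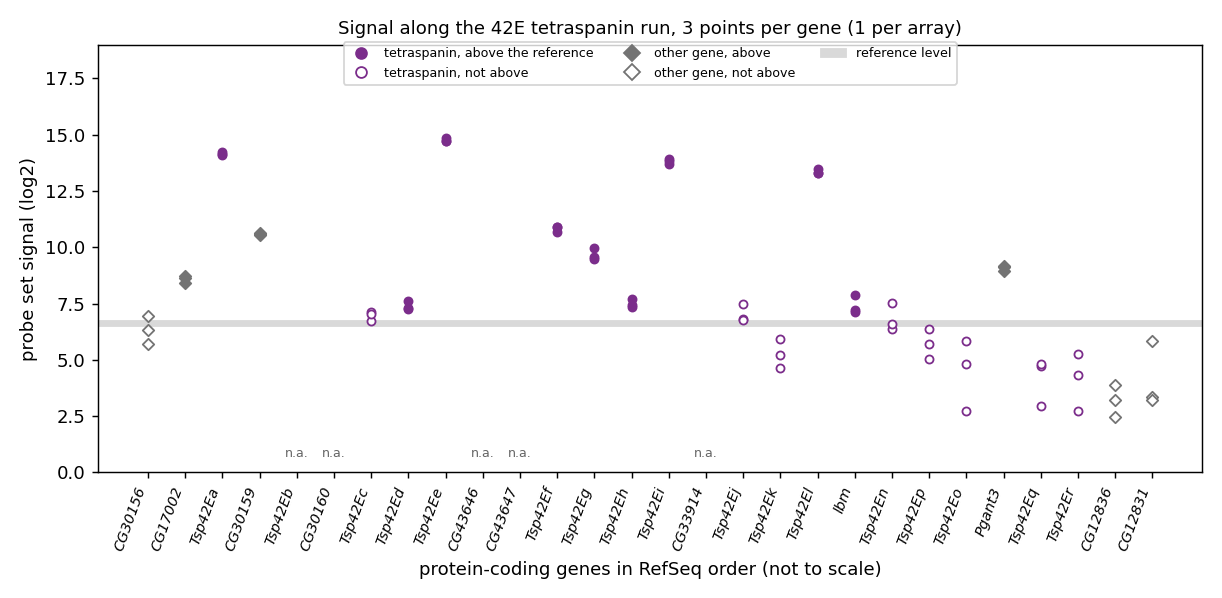
Log2 probe set signal (vertical axis) of the protein-coding genes of the 42E run and of the closest 2 genes on either side, in RefSeq order, with 1 point for each of 3 arrays. Circles are tetraspanins and diamonds other genes, filled where above the reference, whose level is the grey band, and n.a. marks genes not analysed here. *Tsp42Ea*, *Tsp42Ee*, *Tsp42Ei* and *Tsp42El* stand at mean signals of 13.36 to 14.77 and the last 5 tetraspanins have open symbols, as none was called.

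Some tetraspanins have known partners, and these were set beside them as lists of genes. *Tsp3A*, *Tsp26A* and *Tsp86D* belong to the subgroup with cysteine-rich large loops that brings the metalloprotease Kuzbanian to the cell surface and aids Notch signalling. *Tsp3A* had log2 signals of 5.72, 6.44 and 5.67 and *Tsp26A* 4.12, 5.27 and 5.38, all under the reference, so only *Tsp86D* of the 3 was called, by the small margin given above. *kuz* itself was above the reference at 8.70 ± 0.37 (SD, n = 3; difference 2.11 ± 0.23 SE), read by an _s_at probe set. The Notch cleavage list also holds *mam*, a nuclear coactivator of Notch and not a cleavage gene (8.59 ± 0.07, called, by an _s_at probe set). With it, 4 of the 5 measured genes of the list were above the reference, against 46.3% of all genes. *Psn*, the catalytic subunit of gamma-secretase, was at 11.37 ± 0.12 and *pen-2*, another subunit, at 9.91 ± 0.12. The related metalloprotease gene *Tace* was not called (4.77 ± 0.56). The other 7 entries of this list were not analysed here.

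*Tsp2A* is a component of the smooth septate junction, the occluding junction of endodermal epithelia, where it acts with Mesh, Snakeskin and Hoka. *Tsp2A* had log2 signals of 6.10, 5.59 and 5.32 and was under the reference on all 3 arrays (difference -0.93 ± 0.23 SE). *hoka* (5.83 ± 0.84; SD, n = 3), *mesh* (4.62 ± 1.03) and *Ssk*, which encodes Snakeskin (3.77 ± 1.15), were not called either. By limma 0 of these 3 genes were above the reference, 0 had an unadjusted p under 0.05 and 0 were called with an intensity trend in the fit. In contrast, all 15 measured genes of the pleated septate junction, the corresponding junction of ectodermal epithelia, were above it, beside 46.3% of all genes. Among them were *Cont*, the fly contactin (13.89 ± 0.05), *Gli*, a component of tricellular junctions (13.86 ± 0.05), and *Lac*, an immunoglobulin-domain protein gene (13.48 ± 0.14). The claudin-family genes *sinu*, *kune* and *pck* were at 13.10 ± 0.05, 12.31 ± 0.10 and 13.35 ± 0.12. Midgut markers were above the reference in 0 of 6 cases by limma, with 0 at an unadjusted p under 0.05 and 0 with an intensity trend.

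Integrins are tetraspanin partners in many animals and hold the wing's cell layers together. Of 13 measured integrin adhesion genes 11 were above the reference (46.3% of all genes were). The highest differences were those of *parvin* (7.41), of *mys*, the main integrin beta subunit gene (7.16, by an _x_at probe set), and of *Ilk* (7.08). *parvin* and *Ilk* encode linkers between integrins and actin. The alpha subunit genes *ItgaPS4* (4.39 ± 1.85; SD, n = 3) and *ItgaPS5* (4.74 ± 1.59) were not called. For endosomal sorting and vesicle release, the sites where many tetraspanins reside, 17 of 18 measured genes were above the reference, again beside 46.3% of all genes. *Lamp1*, a lysosomal membrane protein gene, was at 14.01 ± 0.07, and *shrb* and *Vps24*, subunits of the membrane-cutting ESCRT complex, were at 13.35 ± 0.04 and 12.19 ± 0.08. The exception was *Rab27*, a GTPase gene known from vesicle release in mammals, at 6.36 ± 0.11.

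**Figure D3:**
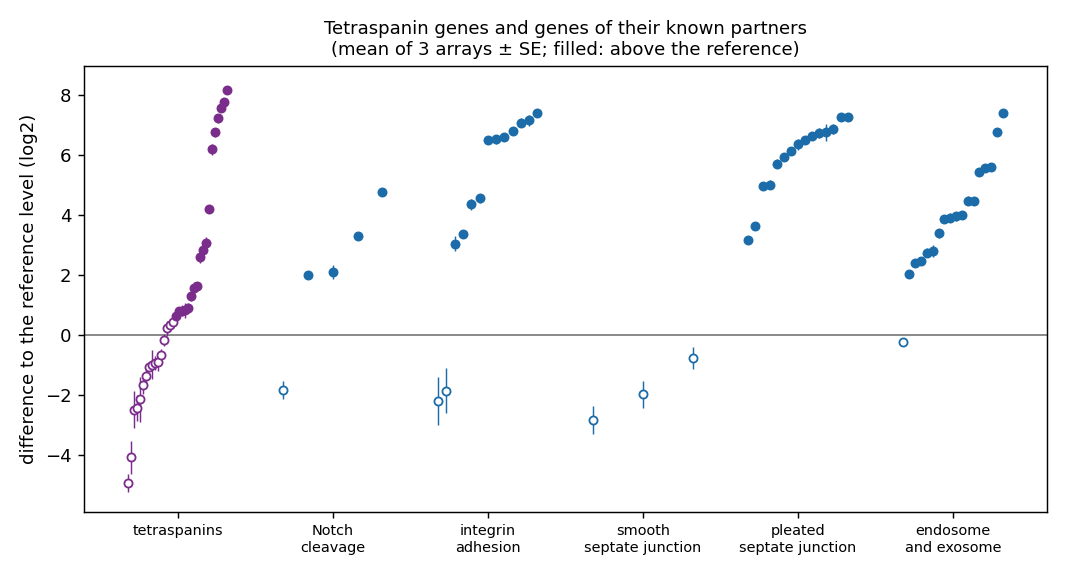
Difference to the reference level (log2, mean of 3 arrays ± SE from limma) of the tetraspanin genes and of 5 lists of genes of known partners and sites, with 1 point per gene and filled points above the reference. All 15 pleated septate junction genes lie between 3.18 and 7.29 and all 3 smooth septate junction genes below 0, while the tetraspanins run from -4.93 to 8.17.

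The spread between arrays was smaller among genes above the reference than among the others. Part of this gap is built in, as the test for a call uses the SD and favours genes with a small one. Over the 18 tetraspanins above the reference the median SD was 0.22 (log2), beside 0.16 over all called genes. It was 0.65 over the 16 that were not called, beside 0.76 over all genes not called. The 6 genes at least 6 log2 units over the reference had SDs from 0.03 to 0.21. Among the genes not called the SD reached 1.61 for *Tsp42Eo*, while *Tsp33B* repeated at 5.60, 5.52 and 5.52. For the called tetraspanins the median deviations of an array from the genes' means were small, at -0.07, 0.02 and 0.01 on replicates 1, 2 and 3. They were larger for the tetraspanins not called, at -0.22, 0.41 and 0.02, beside 0.05, 0.19 and -0.15 over all genes not called.

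**Figure D4:**
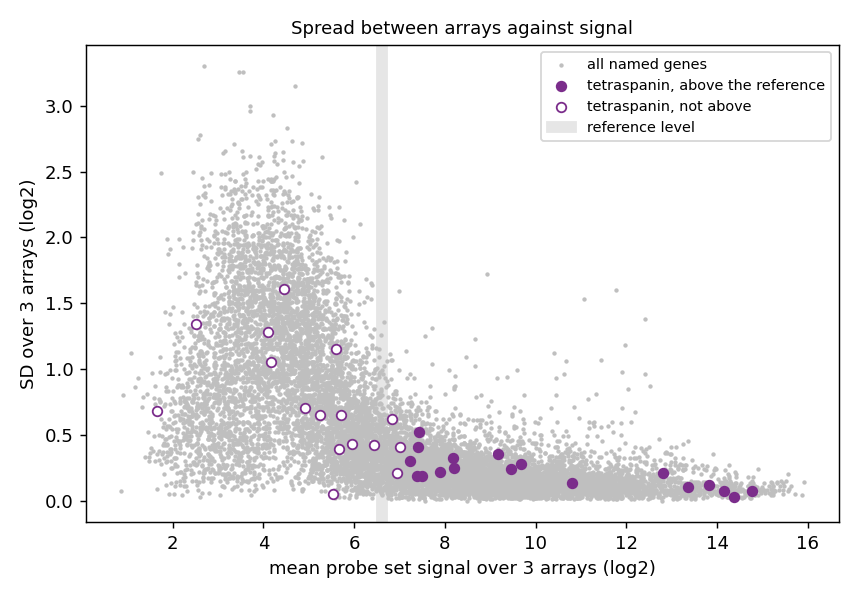
SD over 3 arrays (vertical axis, log2) against mean log2 signal for all named genes (grey) and for the tetraspanin genes (purple, filled where above the reference). The SD of tetraspanins reaches 1.61 under the reference band and at most 0.52 among the called genes, where a small SD itself favours a call.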

How the data were processed

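The authors deposited linear signals (intensity values, not log-transformed) of 18952 probe sets on 3 arrays. The submitters' processing notes name MAS5 and RMA, with no role or order. Each array had a trimmed mean of 500.0 after 2% was left out at each end, a feature of MAS5 scaling. The genome build behind the probe sets is not given in the sources used here, so RefSeq (Release 6 of the fly genome) served for names and gene order only and no coordinates are printed. Signals were taken as log2 without further normalization. Platform annotation gave 1 symbol to 13646 probe sets, several to 402 and none to 4721, and the entrez identifiers of 13543 probe sets matched RefSeq, with no tetraspanin renamed. Where a gene had several probe sets, the one with the highest mean was used.

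The reference held 56 odorant receptor genes and 37 eggshell or accessory gland genes. None of the 93 was called, 1 (*psd*) had an unadjusted p under 0.05, and 1 was called with an intensity trend. As the level is the 95th percentile of these same genes, few calls among them were set in advance. These counts therefore give no rate of false calls. limma 3.58.1 (R 4.3.3; prior of 1.55 degrees of freedom and SD 0.329) was also run on simulated data. There the genes without a set difference had means held under the reference, so error rates close to that level were not checked. Python 3.11.15, pandas 2.3.3, numpy 2.4.6 and matplotlib 3.10.9 handled tables and figures. The number of arrays limits the precision, and the uncertainty of the reference level is not part of the test.

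All tetraspanins were named. From each partner list the 3 genes with the highest differences and up to 5 genes not called were named. *sinu*, *kune*, *pck* and *mam* were added after their values were seen. The members and lists were chosen with earlier results of these data known. Protein and promoter sequences were not analysed here. Markers above the reference numbered 5 of 6 for glia, 2 of 8 for haemocytes, 4 of 8 for muscle, 3 of 6 for fat body and 4 of 6 for trachea, beside 46.3% of all genes. The glial calls were *Gs2*, *moody*, *loco*, *repo* (0.91 over the reference) and *nrv2*, which is also on the pleated septate junction list. *gcm* was not called. For trachea *pio*, *Gasp*, *serp* and *verm* were called, and *btl* and *bnl* were not. Which cells gave these signals was not tested.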

Additional observations from a re-analysis of the deposited data

How the results depend on the processing

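Across 16 alternatives, all planned, 10 of the 18 tetraspanin calls held in every one that measured the gene (*Tsp42Ee*, *Tsp74F*, *Tsp42Ea*, *Tsp42Ei*, *Tsp42El*, *TM4SF*, *Tsp42Ef*, *Tsp42Eg*, *Tsp66E* and *Tsp39D*). The other 8 were lost in at least 1, and of the 16 uncalled genes 4 (*Tsp42Ej*, *Tsp42Ec*, *Tsp42En* and *Tsp29Fa*) gained a call in at least 1. Such counts were not made over all genes, so whether the family differs from them here is not known. The tetraspanin count was 15 to 16 when 1 array was left out, 22 with non-fly controls as reference (56.5% of all genes) and 13 with the 99th percentile (40.5%). With the median plus 1 as reference it was 10 (32.9% of all genes), and *Tsp42Eh* (-0.38), *Tsp29Fb* (-0.46), *lbm* (-0.47), *Tsp42Ed* (-0.48) and *Tsp86D* (-0.66) lay under that level, while *Tsp96F*, *Tsp97E* and *Tsp5D* lay 0.34, 0.29 and 0.01 over it without a call. With non-fly controls *Tsp29Fa* lay 0.93 over it. Without _s_at, _x_at and _a_at probe sets fewer genes are measured, and 11 of 26 tetraspanins were called (39.9% of all genes). In this setting 1 of 2 genes on the Notch cleavage list was called. The other counts were 7 of 9 integrin, 6 of 6 pleated septate junction, 2 of 7 neuronal, 2 of 3 glial and 1 of 6 haemocyte genes. The neuronal count was 7 of 10 with the 90th percentile (48.7% of all genes) and with odorant receptors alone (47.7%). It was also 7 with 3 of 3 arrays and no model (48.9%), and 8 with non-fly controls. With 1 array left out it was 3 to 5 (43.3% to 44.5% of all genes). With only genes over the reference on at least 1 array tested, 7 of 9 neuronal markers were called. That filter raises the share by its design, as 82.1% of all genes kept by it were called. With non-fly controls 4 haemocyte and 7 muscle markers were above, and with the median plus 1 there was 1 haemocyte marker. Adding 16 before the log moved the median of all genes from 6.82 to 7.01, and the mean of probe sets moved it to 6.65. No paired analysis was possible because the 3 arrays form 1 group. The causes of these changes were not tested.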
